A study of Mus musculus with 36 samples.

Results

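Expression of cytochrome P450 genes of the drug-metabolising subfamilies was followed over the day in mouse liver, in mice kept under intermittent hypoxia (IH) or under air. The genes were taken by symbol as members of Cyp1a, Cyp1b, the Cyp2 subfamilies and Cyp3a, listed on 1 row of the deposited tables, whose FPKM averaged 0.1 or more across all libraries. FPKM counts fragments per length of transcript and relative to all mapped fragments of the library. Of 58 symbols that matched, 44 passed this minimum, out of 13215 genes that passed it among 24066 symbols listed on 1 row. The mice were male wild-type C57BL/6JRj animals, 16 weeks old, housed 5 per cage with 12 h of light. IH mice breathed air that cycled 60 times an hour between 21% and 5% oxygen, from zeitgeber time (ZT) 0, which is lights on, to ZT8 each day for 4 weeks. Control mice were exposed to cycles of air alone. Livers of 3 mice per condition were collected at ZT0, ZT4, ZT8, ZT12, ZT16 and ZT20, which gave 36 libraries, 18 per condition. The labels give each library as a separate replicate, and p-values measure the spread between these libraries.

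P450 enzymes are haem proteins of the endoplasmic reticulum that insert oxygen into drugs, toxins, steroids and fatty acids, with electrons that P450 oxidoreductase passes on from NADPH. In the liver lobule most of them are made by hepatocytes near the central vein. The nuclear receptors CAR and PXR and the aryl hydrocarbon receptor AHR induce family members when foreign compounds arrive, growth hormone sets the level of several of them in each sex, and the clock-controlled factors DBP, TEF and HLF bind D-box sequences in the promoters of some.

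Some libraries stood apart. Saa1, an acute phase gene that hepatocytes raise in inflammation, exceeded 10000 FPKM in 3 libraries, control ZT12 replicate 2 (20546 FPKM), control ZT16 replicate 3 (12912 FPKM) and IH ZT0 replicate 2 (22865 FPKM), and exceeded 1000 FPKM in 8, against a median of 76.5 FPKM over the 36. In these 3 libraries 41, 36 and 32 of the 44 P450 genes were the lowest of the 3 mice of their group. Control ZT12 replicate 2 was also the lowest of all 36 libraries for 18 of the 44 genes. These counts were not made over all genes, so they cannot be read as particular to the P450 genes. The FPKM of control ZT12 replicate 2 summed to 758113 over the symbols used, against 540095 to 579428 in the other 35. Leukocyte markers summed to 205.8 FPKM in that library, the highest value of any, with a range of 1.56 to 205.8 FPKM over the control and 1.17 to 14.0 FPKM over the IH libraries for the 7 listed markers, of which Ms4a1 alone was below the minimum. The 8 hepatocyte markers, albumin among them, were present in every library, with sums of 41704 to 68024 FPKM in control and 43581 to 59340 FPKM in IH. Relative depth, read from the step between the lowest FPKM values, ran from 0.779 to 1.31 of the median library, and the number of reads behind a value is not known.

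The summed FPKM of the 44 genes ran from 7240 to 13903 (median 10423) over the control libraries and from 7432 to 14577 (median 11247) over the IH libraries. In 9 of the 12 groups of condition and time point the library with the highest Saa1 had the lowest sum. This was not so for every gene. Cyp3a13 was the highest of the 3 mice in all 3 libraries with Saa1 above 10000 FPKM, at 57.0, 95.9 and 86.8 FPKM in control ZT12, control ZT16 and IH ZT0. The part of Saa1 level in the differences between conditions was not tested, and results that rest on these libraries are given with and without them.

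**Figure D1:**
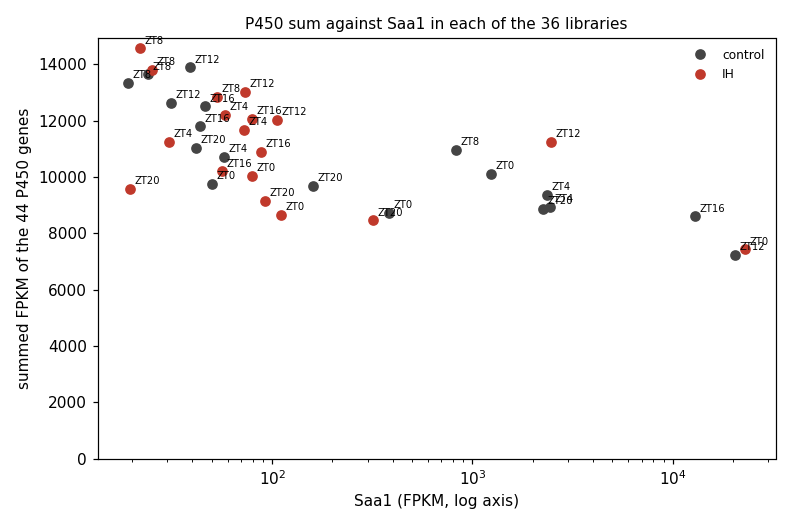
Summed FPKM of the 44 P450 genes (vertical axis, linear from 0) against Saa1 in FPKM (horizontal axis, log scale) in each of the 36 libraries, labelled by time point and coloured by condition. The 3 libraries with Saa1 above 10000 FPKM lie at the right and hold low sums, down to 7240 FPKM in control ZT12 replicate 2.

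The 44 genes differed widely in level. Cyp2e1, which oxidises ethanol and paracetamol, had the highest mean, 3429 FPKM, and held 31.6% of the FPKM summed over the 44 genes. The 13 Cyp2c genes held 22.3% of the sum, the 8 Cyp2d genes 18.7%, the 6 Cyp3a genes 10.2%, Cyp2f2 7.18%, the 4 Cyp2a genes 5.56%, the 2 Cyp1a genes 3.02% and the 3 Cyp2j genes 1.28%. After Cyp2e1 came Cyp2c29 at 869 FPKM, Cyp2d9 at 819 FPKM, Cyp3a11 at 815 FPKM and Cyp2f2 at 780 FPKM, of which Cyp2f2, an enzyme that activates naphthalene, belongs to the periportal side of the lobule. At the low end, Cyp1b1 at 0.132 FPKM, Cyp2s1 at 0.274 FPKM and Cyp3a16 at 0.278 FPKM lay just above the minimum. Cyp2j8 at 0.0962 FPKM, Cyp2d34 at 0.0671 FPKM and Cyp2b9 at 0.0485 FPKM lay just below it. Of the 14 genes below the minimum, Cyp2b19, Cyp2b23, Cyp2j12 and Cyp2w1 were listed at 0 in every library.

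**Figure D2:**
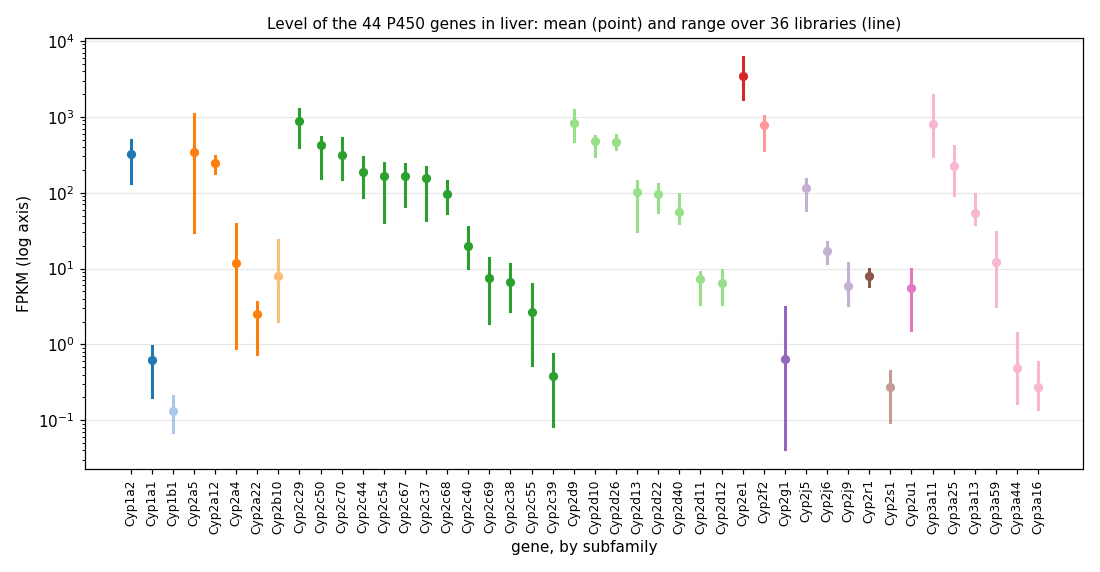
Mean (point) and range over the 36 libraries (line) of each of the 44 genes in FPKM on a log axis, ordered by level within each subfamily and coloured by subfamily. Cyp2e1 stands highest with a mean of 3429 FPKM and Cyp1b1 lowest with 0.132 FPKM, and Cyp2a5, Cyp2a4 and Cyp2g1 have long ranges.

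The subfamilies with several genes lie mostly in clusters. In the RefSeq annotation of GRCm38.p6, the build that mm10 names, the 13 Cyp2c genes lay on chromosome 19 between 39006940 and 44029256, the 8 Cyp2d genes on chromosome 15 between 82370527 and 82794452, and the 4 Cyp2a genes on chromosome 7 between 26307192 and 27036818, with Cyp2b10, Cyp2f2, Cyp2g1 and Cyp2s1 close by. Cyp2c44 lay apart from the other Cyp2c genes, starting at 44005022, where the others ended by 40187286. Cyp3a13, ending at 137925610 on chromosome 5, likewise lay apart from the other Cyp3a genes, which began at 145436309. Reads of 100 bases cannot be placed on 1 gene where transcripts are identical over that length. Of the 43 genes with a transcript in the reference, 16 shared 5% or more of their 100-base words with another gene and 21 shared under 1%. The share was 44.1% for Cyp2c40, 36.3% for Cyp2c69, 23.7% for Cyp2c67, 19.8% for Cyp2c68, 14.4% for Cyp2a5, 11.2% for Cyp2a4, 9.40% for Cyp2c50 and 7.59% for Cyp2c54, and values of these genes are uncertain in how they split between neighbours. Cyp2d13 is annotated as a transcribed pseudogene.

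A rhythm over the day was called where a 24-h cosine fitted to log2(FPKM + 1) passed a nominal P of 0.01 within a condition. In control mice 6 of the 44 genes (13.6%) were called rhythmic, against 20.0% of all genes tested. These were Cyp2a4, Cyp2a5, Cyp2b10, Cyp2e1, Cyp2g1 and Cyp3a13. In IH mice 15 of the 44 (34.1%) were called, against 39.9% of all genes tested. They comprised the first 5 of these genes and Cyp2c44, Cyp2d9, Cyp2d12, Cyp2d22, Cyp2d40, Cyp2j5, Cyp2j9, Cyp2r1, Cyp3a25 and Cyp3a59. Rhythms in both conditions were thus called for 5 of 44 genes (11.4%, against 15.5% of all genes), and in IH alone for 10 (22.7%, against 24.4% of all genes). By subfamily, calls in control fell on 2 of 4 Cyp2a genes and 1 of 6 Cyp3a genes, and on none of the 13 Cyp2c and 8 Cyp2d genes, of which 1 and 4 were called in IH.

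A call in 1 condition does not show that the rhythm differs, and the difference itself was tested, as an interaction between condition and both terms of the cosine. None of the 44 genes passed (0% of all genes tested), none had an unadjusted p under 0.05 against 649 of all 13215 genes, and the lowest adjusted p was 0.92. With the 6 time points as a factor in place of the cosine, the interaction again passed for none of the 44 and for 18 genes in all, and the lowest adjusted p among the 44 was 0.0846, for Cyp2g1. The calls in control were sensitive to the libraries with high Saa1. Without the 3 libraries above 10000 FPKM, 12 of the 44 genes were called rhythmic in control (27.4% of all genes) and 17 in IH (42.4% of all genes). Cyp1a1, Cyp1a2, Cyp2c44, Cyp2d22, Cyp2d40, Cyp2j9 and Cyp3a25 then joined the control list and Cyp2b10 left it. Leaving out control ZT12 replicate 2 alone gave 10 in control (27.1% of all genes).

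The steepest rhythms were those of Cyp2a5 and Cyp2a4. Cyp2a5 metabolises coumarin and nicotine, and its near copy Cyp2a4 hydroxylates testosterone. In control livers Cyp2a5 stood at 63.7, 84.5 and 81.8 FPKM at ZT0, rose to 368, 607 and 599 FPKM at ZT8 and to 1094, 513 and 768 FPKM at ZT12, and was back at 107, 217 and 117 FPKM at ZT20. In IH livers it stood at 54.1, 30.1 and 109 FPKM at ZT0, at 813, 649 and 660 FPKM at ZT8, at 530, 662 and 649 FPKM at ZT12 and at 99.0, 128 and 112 FPKM at ZT20. Every library of ZT8 and ZT12 lay above every library of ZT0 and ZT20 in both conditions. The highest group mean fell at ZT12 in control and at ZT8 in IH. The log2 amplitude was 1.73 ± 0.13 (SE, 18 libraries) in control and 1.82 ± 0.15 in IH, with adjusted p = 9.45e-07 in each. The fitted maximum lay at 12.05 ± 0.30 h in control, against 11.10 ± 0.32 h in IH.

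Cyp2a4 ran at lower levels with the same course. Its control values were 2.38, 3.21 and 3.30 FPKM at ZT0 and 38.6, 12.5 and 24.6 FPKM at ZT12, and its IH values were 1.77, 0.892 and 3.59 FPKM at ZT0 and 28.3, 23.1 and 24.1 FPKM at ZT8. The amplitude was 1.44 in control and 1.60 in IH, and the maximum at 12.05 h and 11.03 h. Since the 2 genes share sequence, their FPKM were also summed, and the sum had amplitudes of 1.73 and 1.82, maxima at 12.05 h and 11.1 h, and adjusted p of 8.67e-07 and 9.54e-07.

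Cyp2b10, a CAR target strongly induced by phenobarbital, had its maximum in the dark hours. At ZT8 its control values were 2.02, 2.12 and 4.27 FPKM and its IH values 4.36, 2.38 and 2.91 FPKM. At ZT16 they were 11.5, 19.2 and 10.8 FPKM in control and 23.6, 22.1 and 22.7 FPKM in IH. The 3 IH mice of ZT16 lay above all 3 control mice, but the difference at that time point did not pass the test. The amplitude was 0.73 ± 0.18 in control (adjusted p = 0.0255) and 0.90 ± 0.21 in IH (adjusted p = 0.00783), with maxima at 18.94 ± 0.97 h and 17.66 ± 0.91 h.

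The promoters of these 3 genes are shown because they held the same D-box letters at about the same distance from the start. Of the 44 genes, 37 had a promoter window of 300 bases, 250 before and 50 after the start, in the RefSeq table of GRCm38.p6. The letters TTATGNAA, searched on both strands, were found in the windows of Cyp2a4, Cyp2a5 and Cyp2b10 and no other of the 37, and in 3.385% of all 32851 windows. The match is a description of letters and not of a bound site. Below are the 120 bases before each start on the plus strand, with the match in capitals (TTGCATAA, the opposite strand of the motif). The stretches lie at chr7:26307072-26307191 for Cyp2a4, chr7:26835219-26835338 for Cyp2a5 and chr7:25897538-25897657 for Cyp2b10.
Cyp2a4: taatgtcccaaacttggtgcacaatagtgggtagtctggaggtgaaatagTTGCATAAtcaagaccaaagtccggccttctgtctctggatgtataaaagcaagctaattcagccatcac
Cyp2a5: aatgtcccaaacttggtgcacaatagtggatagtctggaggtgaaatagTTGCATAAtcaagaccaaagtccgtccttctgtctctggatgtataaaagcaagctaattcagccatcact
Cyp2b10: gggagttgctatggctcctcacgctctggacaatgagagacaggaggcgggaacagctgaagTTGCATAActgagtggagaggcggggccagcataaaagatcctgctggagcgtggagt

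The match began 70, 71 and 58 bases before the start. The stretches of Cyp2a4 and Cyp2a5 were the same at 117 of 119 aligned bases (98.3%), whereas Cyp2b10 shared 31.6% and 30.9% with them. The alignments had no gaps and used small shifts only. The shift that sets the match of Cyp2b10 against those of the other genes was not among them. Other motifs were rare among the 37 windows. The E-box CACGTG was found in Cyp2j6 alone (7.15% of all windows), the AHR core TNGCGTG in Cyp2c68 alone (5.065% of all windows) and the cAMP response element TGACGTCA in none (1.79% of all windows).

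Cyp2e1 carried its rhythm at the highest level of all. At ZT20 its control values were 1739, 2408 and 2235 FPKM and its IH values 2038, 2166 and 2134 FPKM. At ZT8 they were 3470, 5149 and 4722 FPKM in control and 5169, 4856 and 6077 FPKM in IH. All ZT8 libraries lay above all ZT20 libraries. The amplitude was 0.50 ± 0.10 in control (adjusted p = 0.00535) and 0.67 ± 0.05 in IH (adjusted p = 3.09e-07), with maxima at 10.24 ± 0.76 h and 9.17 ± 0.29 h.

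Cyp2g1, best known as a steroid-metabolising enzyme of the nasal mucosa, was near the bottom of the range in level and had a sharp peak. In control it stood at 0.207, 0.0873 and 0.283 FPKM at ZT4, 1.14, 1.22 and 2.14 FPKM at ZT8 and 2.04, 0.425 and 0.825 FPKM at ZT12. In IH it stood at 0.730, 0.948 and 0.797 FPKM at ZT4, 3.16, 2.95 and 2.31 FPKM at ZT8 and 0.531, 0.179 and 0.451 FPKM at ZT12. IH mice thus lay above all control mice at ZT4 and ZT8, while at ZT12 2 of the 3 control mice were the higher and the groups overlapped. The highest group mean was 10.5 times the lowest in control and 33.2 times in IH, and the maximum lay at 9.46 ± 0.75 h and 7.37 ± 0.59 h.

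In all 5 genes rhythmic in both conditions the fitted maximum lay earlier in IH, by -0.95 h for Cyp2a5, -1.02 h for Cyp2a4, -1.08 h for Cyp2e1, -1.27 h for Cyp2b10 and -2.09 h for Cyp2g1 (IH minus control). The median over the 2047 genes rhythmic in both conditions was -0.645 h, and 71.1% of these lay earlier in IH. The amplitude on the log2 scale was larger in IH in 5 of 5 of the genes and in 53.1% of the 2047. None of these differences passed the interaction test.

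**Figure D3:**
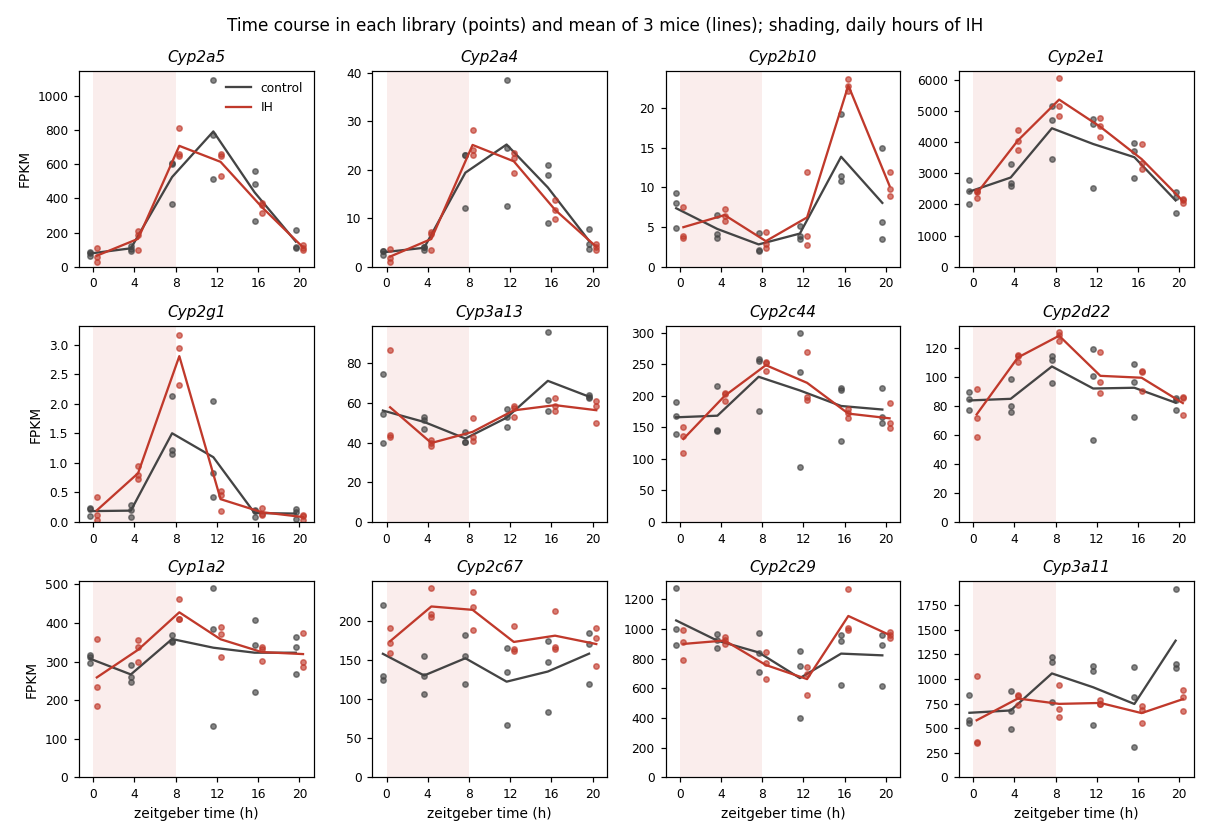
FPKM of 12 of the genes in each library (points) against zeitgeber time in hours, with the mean of 3 mice (lines), control in grey and IH in red, and the daily hours of IH shaded from ZT0 to ZT8. Each panel has its own linear axis from 0, and Cyp2a5 and Cyp2a4 rise to their highest means at ZT12 in control and ZT8 in IH.

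Genes called in IH alone had smaller amplitudes. Cyp2c44, which makes epoxides of arachidonic acid, stood in IH at 136, 109 and 150 FPKM at ZT0 and 239, 252 and 254 FPKM at ZT8, with no overlap, for an amplitude of 0.39 ± 0.06 and adjusted p = 0.000393. Its control values were 169, 139 and 190 FPKM at ZT0 and 176, 259 and 255 FPKM at ZT8, where the groups overlapped, and 300, 87.2 and 238 FPKM at ZT12, where the low value is that of replicate 2. The control amplitude was 0.15 ± 0.14 with adjusted p = 0.682.

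Cyp2d22 had a like course. It ran in IH from 71.7, 59.0 and 92.0 FPKM at ZT0 to 131, 129 and 125 FPKM at ZT8 (amplitude 0.33 ± 0.07, adjusted p = 0.00241), and in control from 89.8, 77.2 and 84.6 FPKM to 95.8, 112 and 114 FPKM (amplitude 0.13 ± 0.09, adjusted p = 0.502). The 2 time points did not overlap in either condition. Cyp2c44 and Cyp2d22 both joined the control calls without the 3 libraries of highest Saa1.

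Of the other Cyp2d genes called in IH alone, Cyp2d9, a testosterone hydroxylase of the male liver, had its IH maximum at 9.09 h with an amplitude of 0.32, and Cyp2d12 at 9.00 h with 0.31. Cyp2d40 alone had its maximum in the dark hours, at 20.21 h, with 42.2, 46.1 and 47.2 FPKM at ZT8 and 66.5, 58.4 and 59.1 FPKM at ZT16 in IH, which did not overlap. Cyp3a25 and Cyp3a59 peaked in IH at 8.14 h and 8.87 h, with amplitudes of 0.49 and 0.54. Cyp2j5 and Cyp2r1, the vitamin D hydroxylase, had IH maxima near lights on, at 0.81 h and 1.02 h, with amplitudes of 0.21 and 0.18, and Cyp2j9 at 6.62 h with 0.40. In all, 11 of the 15 genes rhythmic in IH had their maximum between ZT6 and ZT12, against 23.4% of the 5273 genes rhythmic in IH. These bounds were chosen after the values were seen.

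Cyp3a13, a PXR target, was the gene called in control and not in IH, and this split moved with libraries and settings. Without IH ZT0 replicate 2, which has Saa1 above 10000 FPKM, it was called in IH as well (adjusted p = 3.56e-05). Its means were highest at ZT16 in both conditions, with 56.1, 61.6 and 95.9 FPKM in control and 58.6, 62.3 and 55.9 FPKM in IH. The amplitude was 0.30 ± 0.08 in control (adjusted p = 0.0318) and 0.25 ± 0.08 in IH (adjusted p = 0.0347). Cyp3a13 was called in IH under 5 of 11 settings other than single libraries left out. Among these were median-of-ratios scaling, FPKM rescaled to a common sum and the replicate block, which keep all libraries. In control it was called under 9 of 11 such settings and in 34 of 36 fits with a library left out. The control call was lost without control ZT8 replicate 2 or replicate 3. Cyp3a11, the major drug-oxidising P450 of mouse liver and a PXR target, was called in neither. Its lowest, median and highest values over the 36 libraries were 306, 776 and 1911 FPKM, with the lowest in control ZT16 replicate 3, a library with Saa1 above 10000 FPKM, and the highest in control ZT20 replicate 2.

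**Figure D4:**
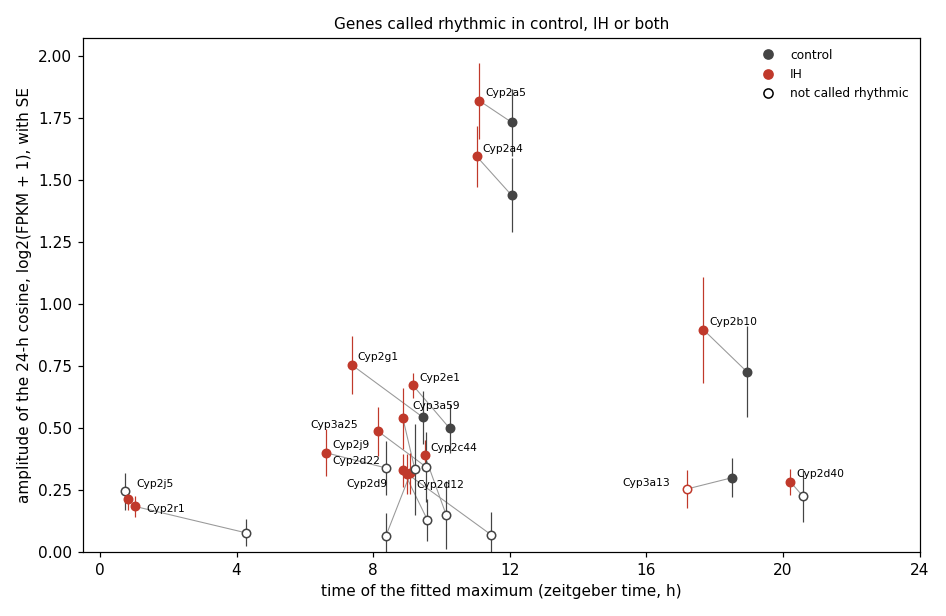
Amplitude of the fitted 24-h cosine on log2(FPKM + 1), with its SE, against the time of the fitted maximum in hours, for the 16 genes called rhythmic in control, IH or both. A grey line joins control (grey) and IH (red) of a gene, filled points were called and open points not, and most points of IH lie between 6.6 and 11.1 h.

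Levels were compared between the conditions at ZT4 and ZT8, time points within and at the end of the daily hypoxia, over 12 libraries, with a term for the time point. At an adjusted p under 0.05, 11 of the 44 genes (25.0%) were higher in IH, against 6.05% of all genes tested, and none was lower, against 1.93%. At an unadjusted p under 0.05, 19 (43.2%) were higher, against 20.1% of all genes, and Cyp2f2 alone (2.27%) was lower, against 7.00%. The median difference was 0.17 on the log2 scale over the 44 genes and 0.04 over all genes, with 30 of 44 (68.2%) and 64.8% above 0. In bulk liver RNA, fewer cells of a type and less RNA per cell cannot be told apart. Of the 8 general hepatocyte markers, 2 were called higher in IH at these time points, Apoa1 (0.34, adjusted p = 0.0123) and Asgr1 (0.29, adjusted p = 0.0144), and the median difference of the 8 was 0.15, beside 0.17 for the P450 genes. Their part in the result was not tested. Of the 5 pericentral hepatocyte markers Oat was called lower at these time points (-0.41, adjusted p = 0.0264). The others were not called, with 0.28 for Glul, 0.17 for Slc1a2, -0.04 for Lgr5 and -0.05 for Rnase4. The median of the 5 was -0.04. Of the 5 periportal markers Sds was called higher, and their median was 0.12. Over all time points pericentral markers summed to 687 to 1306 FPKM in control and 657 to 1379 FPKM in IH libraries. The periportal sums were 794 to 1987 FPKM and 629 to 1905 FPKM. Kupffer cell markers summed to 19.1 to 139.7 FPKM in control and 15.4 to 38.6 FPKM in IH, and none of the 6 was called, nor was any tested marker of cholangiocytes, leukocytes, endothelial, stellate or erythroid cells. No listed marker of these types in the tables was at 0 in all libraries.

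The called genes were 6 of 13 Cyp2c genes, Cyp2d13 and Cyp2d22, Cyp1a2, Cyp2e1 and Cyp2g1. In 9 of the 44 genes (20.5%, against 4.92% of all genes) all 3 IH libraries lay above all 3 control libraries at both time points, namely Cyp1a2, Cyp2c40, Cyp2c50, Cyp2c54, Cyp2c67, Cyp2c68, Cyp2d10, Cyp2d22 and Cyp2g1. Of these Cyp2d10 was not called (adjusted p = 0.0548).

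Cyp2c67 and Cyp2g1 had the largest fitted differences among the 44, in an order that turned with the pseudocount. Its values at ZT4 were 129, 155 and 106 FPKM in control and 205, 208 and 241 FPKM in IH, and at ZT8 119, 182 and 155 FPKM in control and 188, 217 and 236 FPKM in IH. The groups did not overlap at either time point. The difference was 0.63 ± 0.12 (SE, log2), or 1.55-fold, with adjusted p = 0.0155. Cyp2g1, given above for its peak, differed by 0.62 ± 0.09 with adjusted p = 0.00875. With a pseudocount of 0.1 in place of 1 the differences were 0.63 for Cyp2c67 and 1.31 for Cyp2g1, since a gene of low level is held down by the larger pseudocount.

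Cyp2c54, a member of higher level in male mice, stood at 128, 159 and 144 FPKM in control and 202, 204 and 189 FPKM in IH at ZT4, and at 135, 177 and 183 FPKM and 233, 219 and 244 FPKM at ZT8. IH lay above control throughout, by 0.48 ± 0.08 or 1.40-fold (adjusted p = 0.01). Cyp2c40, which makes hydroxylated derivatives of arachidonic acid, stood at 15.4, 17.7 and 17.0 FPKM against 21.0, 21.4 and 27.6 FPKM at ZT4, and at 15.4, 19.7 and 15.9 FPKM against 20.8, 24.8 and 25.7 FPKM at ZT8, again without overlap and 1.37-fold higher (adjusted p = 0.0151). The remaining Cyp2c genes were Cyp2c69 at 1.35-fold (adjusted p = 0.0213), Cyp2c68 at 1.28-fold (adjusted p = 0.0311) and Cyp2c50 at 1.11-fold (adjusted p = 0.0423). Cyp2c40, Cyp2c67, Cyp2c68 and Cyp2c69 share much sequence, and the sum of their FPKM was higher in IH by 0.52 ± 0.09 (adjusted p = 0.0138). Cyp2c29, the most abundant Cyp2c gene and a CAR target, had a difference of -0.07 ± 0.08 (adjusted p = 0.589), with 871, 963 and 928 FPKM in control and 943, 928 and 895 FPKM in IH at ZT4.

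Outside the Cyp2c cluster, Cyp1a2, which oxidises caffeine and aromatic amines, stood at 248, 292 and 260 FPKM in control and 298, 338 and 355 FPKM in IH at ZT4, and at 352, 353 and 370 FPKM and 411, 410 and 461 FPKM at ZT8. The groups did not overlap and differed 1.21-fold (adjusted p = 0.0213). Cyp2e1 at ZT4 stood at 2581, 3314 and 2696 FPKM in control and 3748, 4032 and 4384 FPKM in IH, and at ZT8 the groups overlapped. Its difference over both time points was 1.32-fold (adjusted p = 0.0472). Cyp2e1 was called in 27 of 36 fits with a library left out and under 4 of 9 other settings. The call was lost after median-of-ratios scaling (adjusted p = 0.059), quantile normalization (adjusted p = 0.101) and rescaling of FPKM to a common sum. Cyp2d22 and Cyp2d13 were both 1.27-fold higher, with adjusted p of 0.0196 and 0.0366. Cyp2f2 was the gene with a lower value nearest to the threshold, at 870, 844 and 838 FPKM in control and 766, 770 and 793 FPKM in IH at ZT4, by -0.14 ± 0.06 (adjusted p = 0.131). The Cyp3a genes had differences from -0.24 to 0.09, and none was called.

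**Figure D5:**
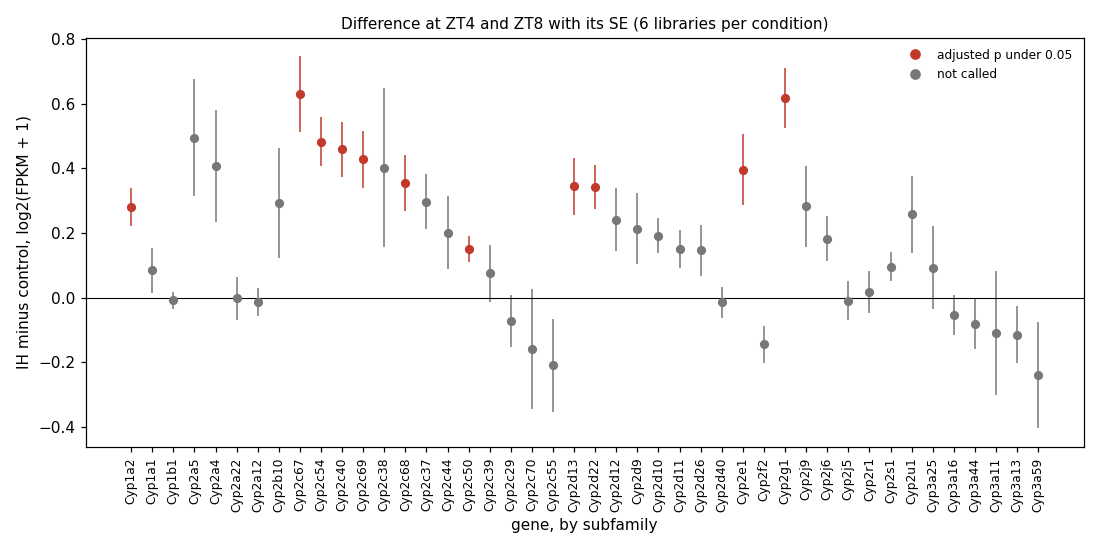
Difference between IH and control at ZT4 and ZT8 on log2(FPKM + 1), with its SE, over 6 libraries per condition, for each of the 44 genes ordered within subfamilies. The 11 genes called at an adjusted p under 0.05 are red and all lie above 0, and the 6 Cyp3a genes lie between -0.24 and 0.09.

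These calls moved with single libraries and with Saa1. Control ZT4 replicates 1 and 3 had 2357 and 2435 FPKM of Saa1 and the 3 IH libraries of ZT4 had 30.6 to 72.1 FPKM. The 10 acute phase genes listed had a median difference of -0.52 at ZT4 and ZT8, and none was called. Without the 8 libraries with Saa1 above 1000 FPKM, which leaves 1 control library at ZT4, none of the 44 genes was called and 19 of all genes (0.144%) were. The median difference of the 44 genes was then 0.0925, that of all genes 0.023, and the estimates for Cyp2g1, Cyp2c67, Cyp2c54 and Cyp2c40 were 0.66, 0.50, 0.44 and 0.43. With single libraries left out, these 4 genes remained called in 36 of 36 fits and Cyp2c50 in 25 of 36. The number called fell to 4 without control ZT4 replicate 1, 5 without IH ZT4 replicate 2 and 6 without IH ZT4 replicate 3. Of all genes 1.42%, 1.37% and 1.68% were called higher in these fits, against 6.05% with all libraries. The number was 7 without IH ZT8 replicate 2, where the share of all genes was not counted. It was also 7 without control ZT8 replicate 1, where 2.38% of all genes were called higher. Scaling also mattered for the background. Of all genes called at these time points 75.8% were higher in IH as deposited, 51.1% after median-of-ratios scaling, 55% after quantile normalization and 66.3% with FPKM rescaled to a common sum. Of the 44 genes 8, 6 and 8 were called under these 3 scalings, all higher, against 3.57%, 3.97% and 3.72% of all genes called higher.

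Over all 6 time points 1 of the 44 genes was higher in IH, against 0.303% of all genes tested, and none was lower, against 0.0530%. The gene was Cyp2c40, with 0.39 ± 0.09 on the log2 scale (adjusted p = 0.0430), and it was called in 10 of 36 fits with a library left out. Its lowest, median and highest values over all libraries were 10.1, 17.8 and 35.8 FPKM, and the conditions overlapped at ZT0, ZT12, ZT16 and ZT20. Without the 3 libraries with Saa1 above 10000 FPKM, Cyp2c67 and Cyp2c68 were called as well. At an unadjusted p under 0.05, Cyp2c67, Cyp2c68, Cyp2c69 and Cyp2e1 were also higher, which made 5 of 44 (11.4%, against 8.44% of all genes), and Cyp3a16 and Cyp3a59 were lower (4.55%, against 2.34%). The median difference over the 44 genes was 0.04, against 0.03 over all genes.

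At single time points none of the 44 genes was called. The share of all genes called in either direction was 0% at ZT0, 1.16% at ZT4, 0.00757% at ZT8, 0.772% at ZT12, 0.00757% at ZT16 and 0% at ZT20. The lowest adjusted p among the 44 was 0.0653 at ZT4 and 0.0832 at ZT12, both for Cyp2g1, which was higher in IH at ZT4 (0.62 on the log2 scale) and lower at ZT12 (-0.53). At an unadjusted p under 0.05, Cyp2d10, Cyp2d13 and Cyp2u1 (6.82%) were lower at ZT0, against 4.34% of all genes, 6 genes (13.6%) were higher at ZT4, against 12.8%, and Cyp2g1 (2.27%) was higher at ZT8, against 3.19%. At ZT12, 4 genes (9.09%) were higher, against 12.9%, and 2 (4.55%) lower, against 11.7%. None of the 44 passed this bound at ZT16, against 2.47% higher and 0.832% lower of all genes, and at ZT20 Cyp3a16, Cyp3a44 and Cyp3a59 (6.82%) were lower, against 1.07%. Without the 3 libraries with Saa1 above 10000 FPKM, 6 were called, all at ZT4 (Cyp2c67, Cyp2d13, Cyp2d22, Cyp2e1, Cyp2g1 and Cyp2u1). The share of all genes called in that fit was not counted.

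Genes that serve the P450 enzymes were read in the same way. Of 14 genes for electron donors and haem supply, 7 were rhythmic in control and 9 in IH. Of all genes tested, 20.0% were rhythmic in control, 39.9% were in IH, and 6.05% were higher in IH at ZT4 and ZT8. Por, the reductase that feeds every microsomal P450, stood at 57.2, 46.4 and 68.8 FPKM at ZT4 and 304, 241 and 267 FPKM at ZT12 in control, and at 86.6, 62.2 and 105 FPKM and 245, 198 and 279 FPKM in IH. Its amplitude was 1.07 in control and 1.10 in IH, and its maxima fell at 12.4 h and 10.8 h. Alas1, the first enzyme of haem synthesis, had amplitudes of 1.18 and 1.32 with wide scatter, such as 427, 154 and 553 FPKM in control at ZT12. At ZT4 and ZT8 only Cyb5r3, the cytochrome b5 reductase, was called in this list (0.27, adjusted p = 0.0278), and Por had 0.42 (adjusted p = 0.0596).

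Of 13 receptors and partners tested, Ahrr being below the minimum, 4 were rhythmic in each condition. The shares of all genes were 20.0% in control and 39.9% in IH, with 6.05% higher and 1.93% lower at ZT4 and ZT8. Nr1i3, which encodes CAR, was the 1 gene called at ZT4 and ZT8, at 38.0, 45.4 and 31.0 FPKM in control and 64.4, 63.6 and 66.7 FPKM in IH at ZT4, and 37.2, 89.2 and 84.6 FPKM and 98.5, 90.5 and 99.9 FPKM at ZT8 (0.66 ± 0.18, adjusted p = 0.0474). IH lay above control at both. Control values were lowest in ZT4 replicates 1 and 3 and ZT8 replicate 1, with Saa1 at 2357, 2435 and 828 FPKM. The call was close to the threshold and was not read under the alternative settings. The part of Saa1 level in it was not tested. Among the 5 P450 genes listed as CAR targets, 2 were rhythmic in each condition (Cyp2a5 and Cyp2b10) and none was called at ZT4 and ZT8, and of the 4 listed as PXR targets 2 were rhythmic in control, 1 in IH and none was called. Of the 3 AHR targets, Cyp1a1, Cyp1a2 and Cyp1b1, none was called rhythmic in either condition and Cyp1a2 was called in level. The rhythm calls moved with libraries and settings. Cyp1a2 was called rhythmic in IH in 3 of 36 fits with a library left out and under 2 of 11 other settings. In control it was called in 0 of 36 such fits and under 2 of 11 settings, both without libraries of high Saa1. Cyp1a1 was called rhythmic in control without the 3 libraries with Saa1 above 10000 FPKM. Cyp1b1 was called in IH under 1 of 10 settings, with no filter on low values.

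Among the clock output factors reported here, Bhlhe41, Hlf and Tef were higher at ZT4 and ZT8 and Nfil3 was lower. Dbp, which encodes the D-box activator DBP, stood at 3.90, 2.77 and 4.52 FPKM in control and 8.78, 30.5 and 37.1 FPKM in IH at ZT4, and at 62.9, 78.4 and 71.2 FPKM and 98.7, 95.4 and 84.4 FPKM at ZT8. The IH values were the higher at both, and the difference of 1.34 did not pass (adjusted p = 0.0514). The fitted maximum of Dbp was at 9.51 h in control mice and 8.42 h in IH mice. Nfil3, which encodes a repressor at the same D-box sequences, differed by -0.52 (adjusted p = 0.0467).

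Sex-dependent genes were counted in the same way in these male livers. Beside these counts, 20.0% of all genes were rhythmic in control, 39.9% in IH and 15.5% in both. At ZT4 and ZT8 6.05% were higher in IH. Of 8 P450 genes listed as higher in female liver, 4 passed the minimum, of which Cyp2a4 was rhythmic in both conditions and Cyp2c69 was higher at ZT4 and ZT8. Of 3 listed as higher in male liver, Cyp2d9 was rhythmic in IH and Cyp2c54 higher at ZT4 and ZT8. Of 4 growth hormone dependent factors tested out of 5, Stat5b was rhythmic in both conditions. Of 9 family members that act on vitamin D, retinoids or fatty acids, 7 were tested. None was rhythmic in control (20.0% of all genes) and 4 were in IH (39.9% of all genes), Cyp2c44, Cyp2j5, Cyp2j9 and Cyp2r1. Cyp2c44 and Cyp2j9 were called in control as well without the 3 libraries with Saa1 above 10000 FPKM. None passed the interaction test or was called in level.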

How the data were processed

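Liver RNA was sequenced in 36 libraries, 18 per condition. Per the submitters' processing notes and the methods of the study, the authors aligned reads to mm10 with TopHat2 2.1.1 running Bowtie2 and estimated expression with Cufflinks 2.2.1, and deposited FPKM per gene symbol, in a table for each condition. Column names do not differ between these tables, and which table holds IH was read from table names and from time courses the study plots. The gene annotation is not given in the sources used here. Time point and replicate came from the sample labels.

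The tables had 24883 rows, and 280 symbols that occupied several rows were not used. Genes that averaged 0.1 FPKM or more were analysed as log2(FPKM + 1) with limma 3.58.1 in R 4.3.3 (moderated tests with an intensity trend). Fold changes on this scale understate the change of low genes. Rhythms were tested with a 24-h cosine within each condition at a nominal P of 0.01. Interactions and differences in level used Benjamini-Hochberg adjusted p under 0.05 over all 13215 genes. SE stands for standard error. The tests were tested on simulated data. Relative depth came from ratios between libraries of FPKM values under 0.05. Figures were drawn with matplotlib 3.10.9 in Python 3.11.15.

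The genes, gene lists, tests and the rule for named genes (the highest member of each subfamily, members called in the interaction or level tests, the 5 with the smallest P in each rhythm test and in the interaction, and 11 well-known members) were chosen with earlier results of these data known. Genes of the other lists are named where they were called or are well known, and genes named outside the rule were chosen after their values were seen. Coordinates and promoters are from RefSeq, GRCm38.p6. Protein sequences were not used here, and some genes of the lists are not reported here. Alternatives were a pseudocount of 0.1, other filters and scalings, a replicate block, the time point as a factor, a shared spread, single fits, other thresholds, and leaving out libraries. Leaving out libraries with Saa1 above 1000 FPKM and summing near-identical genes were chosen after seeing the data.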

Additional observations from a re-analysis of the deposited data

How the results depend on the processing

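The number of the 44 genes called rhythmic in control moved from 6 to 12 without the 3 libraries with Saa1 above 10000 FPKM and to 10 without the 8 above 1000 FPKM, and from 4 (without control ZT8 replicate 2) to 10 (without control ZT12 replicate 2) with 1 library left out. Of all genes 27.4% were called rhythmic in control without the 3 libraries and 27.1% without control ZT12 replicate 2, against 20.0% with all libraries. Without the 8 libraries the share was 21.5%. The number of the 44 rhythmic in IH moved from 13 to 18 with 1 library left out. At an adjusted p under 0.05 it was 20 (45.5%, against 47.9% of all genes). Cyp1a2, Cyp2c29, Cyp2c67, Cyp2c70 and Cyp3a13 then joined. In control the number stayed at 6 at that threshold (13.6%, against 20.1% of all genes). Without the 8 libraries, Cyp1a2, Cyp2a12, Cyp2c29, Cyp2c70, Cyp2d10 and Cyp3a13 joined the IH calls and Cyp2r1 left (43.1% of all genes called). None of the 44 passed the interaction test under any alternative run.

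For genes higher in IH over all time points, the count of 1 became 0 with no filter on low values, median-of-ratios scaling, quantile normalization, FPKM rescaled to a common sum, the replicate block or without the 8 libraries with Saa1 above 1000 FPKM, 3 without the 3 above 10000 FPKM and 4 at a nominal P of 0.01, and ran from 0 to 4 with 1 library left out. At ZT4 and ZT8 the count of 11 became 6 with quantile normalization and 0 without the 8 libraries, and ran from 4 to 12 with 1 library left out. At single time points the count of 0 became 1 (Cyp2g1 at ZT4) with a pseudocount of 0.1, 6 without the 3 libraries, 5 at a nominal P of 0.01 and 6 with a fit of each time point alone, and ran from 0 to 4 with 1 library left out, both without control ZT12 replicate 1 and without control ZT12 replicate 3. No gene was lower in either level test under any alternative run. The cause of these changes was not tested, except that settings without libraries use fewer samples.

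The replicate block gave 6 and 16 rhythmic genes of the 44 in control and IH (18.3% and 38.7% of all genes). It gave 10 higher at ZT4 and ZT8 (5.19% of all genes). Deviations of same-numbered mice correlated with r from -0.179 to 0.294 over 18 pairs, 6 of them over 0.1. Their own number was the best match for 10 of 18 libraries, among them all those of ZT12 and ZT20. Whether this exceeds chance was not tested. The labels do not say that same-numbered mice are pairs, and the numbers entered the replicate block alone. FPKM carry no read counts, so counting error could not be separated from other spread, which bears most on genes under 1 FPKM.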
